A study of Rattus norvegicus with 2 samples.

Results

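Laminins and fibronectin are large matrix glycoproteins, and integrins are the cell-surface receptors that hold on to them. The 9 genes chosen by name for this description were the laminin chain genes Lamb1, Lamb2 and Lamc1, the fibronectin gene Fn1, and the integrin subunit genes Itga1, Itga5, Itga6, Itga7 and Itgb1. All probe sets that the platform annotation assigns to exactly 1 of these symbols were taken, with no use of their signal. That gave 13 probe sets for 8 of the 9 genes, out of 10411 genes with their own probe sets. Itga5, the alpha subunit of the main fibronectin receptor, had no probe set by this rule and was not analysed here.

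The study set rat sympathetic neurons grown on myocytes, a target that these neurons innervate, against sympathetic neurons grown without that target. The protocol, given in the same words for both samples, lifted the less adherent neurons off other cells with 1 mM EDTA for 2 min, and total RNA was hybridised to an Affymetrix Rat Expression Set 230A array, 1 array for each culture. The labels give no strain, age or culture time, and they do not say how many animals or dishes went into an array. The description field of the co-culture sample names neurons grown alone, against its title and source name, so "neurons from co-culture" rests on the title and source name.

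A laminin is a trimer of an alpha, a beta and a gamma chain that assembles into the basement membrane around Schwann cells, muscle and vessels. Fibronectin is a dimer that cells pull into fibrils. An integrin is a pair of an alpha and a beta subunit. The beta 1 subunit pairs with many alpha subunits, which set the ligand: alpha 5 for fibronectin, alpha 6 and alpha 7 for laminin, alpha 1 for collagen and laminin. Sympathetic neurons extend axons on laminin in culture through beta 1 integrins.

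Values are deposited intensities on a linear scale, and differences are log2 ratios with neurons from co-culture on top and neurons alone below. The median intensity over 15866 probe sets was 175.0 in neurons from co-culture and 185.7 in neurons alone. A probe set counted as above the signal filter when it reached its array's median in at least 1 array, and values under 39.6 were raised to that floor before log2. With 1 array per culture no value has a replicate check and no test was possible, so every difference compares these arrays and not the conditions. The only spread available was that between probe sets of the same gene, over 749 genes with several above the filter. It gave an SD of 1 probe set's log2 ratio of 0.36 for the dimmest and 0.21 for the brightest of 4 groups by signal, and it holds any true difference between transcript variants as well as noise. Each ratio also moved with the scaling: the median of all genes was -0.015 as deposited, 0.072 after median scaling and -0.11 after scaling to the spiked control transcripts. In total RNA, a change in the number of cells of a type and a change in RNA per cell cannot be told apart.

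Lamb1 and, by less, Fn1 had a higher signal in neurons from co-culture. On their brightest probe sets the other members differed by less than the SD of a probe set. The other Itga6 probe set, below the filter, was at 0.45, or 1.24 SD. Of the 8 measured members, all above the filter on their brightest probe set, 6 were higher and 2 lower in neurons from co-culture, with 7 higher after median scaling and 5 after scaling to the spiked controls. Over all 6368 genes above the filter, 47.3% were higher, a share that was 61.3% after median scaling, 52.7% after quantile normalization and 32.6% after scaling to the spiked controls. Lamb1 was the member at 1.5-fold or more, 1 of 8. The background was 5.23% of all genes at that fold in either direction and 1.93% in the higher direction, so with 8 genes a single call says little about the group. Of all calls at 1.5-fold, 36.9% were higher as deposited, 57.6% after median scaling and 18.75% after scaling to the spiked controls. No member reached 2-fold in either direction, against 0.942% of all genes (0.314% higher and 0.628% lower). The median log2 ratio was 0.17 for the 8 members and -0.015 for all genes. On their brightest probe sets, 6 of the 8 members lay within 1 SD of a single probe set.

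**Figure D1:**
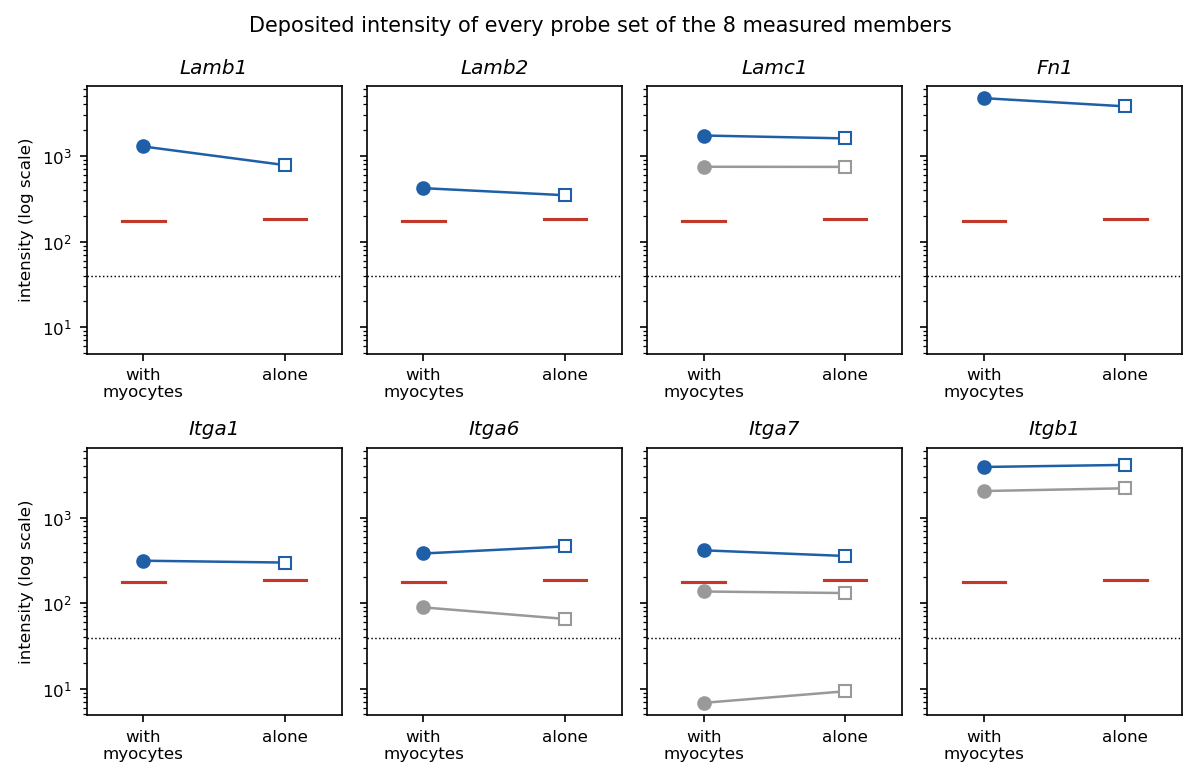
Deposited intensity (log scale) of each of the 13 probe sets of the 8 measured genes, in neurons from co-culture (filled circle, left) and in neurons alone (open square, right); blue marks the brightest probe set of a gene, grey its others, red bars the array medians and the dotted line the floor. Lamb1 has the steepest line among the brightest probe sets, with 1293 in neurons from co-culture and 783 in neurons alone.

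Among the laminin chains, Lamb1 stood out. Lamb1 encodes the beta 1 chain, part of the most widespread laminins. Its probe set had an intensity of 1293 in neurons from co-culture and 783 in neurons alone. The signal was thus 1.65-fold higher in neurons from co-culture, a log2 ratio of 0.72 that was 3.42 times the SD of a probe set at this brightness (0.21). Past 3 SD lay 1.35% of all genes. Lamb1 ranked number 71 from the top of the 6368 genes, and its ratio ran from 0.63 to 0.81 over 5 other scalings, so it was past 1.5-fold under each of them. The array carries 1 usable probe set for this gene, so no other measurement of it was at hand.

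Lamb2 encodes the beta 2 chain, which takes the place of beta 1 in the laminins of the neuromuscular synapse. It had 421 in neurons from co-culture and 348 in neurons alone, a log2 ratio of 0.27 within 1 SD (0.29). Lamc1 encodes the gamma 1 chain, which joins either beta chain. Its brighter probe set had 1736 in neurons from co-culture and 1606 in neurons alone. The other had 749 in neurons from co-culture and 746 in neurons alone. Both were thus near equal in the 2 arrays, with log2 ratios of 0.11 and 0.0052, the second of which was -0.089 under scaling to the spiked controls. The beta 1 chain and its gamma 1 partner differed in log2 ratio by 0.61. That was 2.04 times the SD of a difference (0.30) built from the spread between probe sets of the same gene. An SD of this kind holds no variation between cultures. The ratio of Lamb1 exceeded that of Lamb2 by 0.45, or 1.24 SD.

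The promoters of Lamb1 and Lamc1 are shown because these chains of the same trimer had the widest gap in log2 ratio among the 3 laminin genes. Each is the 250 bases before the start in the RefSeq table for GRCr8, Lamb1 at chr6:53562846-53563095 on the + strand and Lamc1 at chr13:68051987-68052236 on the - strand. Capitals mark the GC box GGGCGG on either strand, a sequence bound by Sp family factors.
Lamb1: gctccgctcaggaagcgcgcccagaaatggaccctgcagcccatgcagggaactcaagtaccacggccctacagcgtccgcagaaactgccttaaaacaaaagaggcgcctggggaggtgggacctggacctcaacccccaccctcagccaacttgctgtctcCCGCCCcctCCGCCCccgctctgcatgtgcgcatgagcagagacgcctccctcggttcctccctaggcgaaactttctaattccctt
Lamc1: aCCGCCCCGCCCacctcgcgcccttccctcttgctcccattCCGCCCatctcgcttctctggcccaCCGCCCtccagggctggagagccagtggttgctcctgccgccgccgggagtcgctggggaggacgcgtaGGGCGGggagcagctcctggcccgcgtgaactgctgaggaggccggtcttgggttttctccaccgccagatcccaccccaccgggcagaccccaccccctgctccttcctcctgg
The Lamb1 window held 2 GC boxes and the Lamc1 window 5, a pair of which overlap at its far end, and 30.5% of 33469 promoters of this length held at least 1. Neither window held the AP-1 letters TGANTCA (in 6.34% of promoters) or the TATA letters TATAAA (in 12.9%), searched on both strands. The GC content was 62.0% for Lamb1 and 71.2% for Lamc1, against a median of 51.2% for all promoters. Such matches describe the windows and are not sites of binding. Promoter sequences matched 5 of the 9 genes.

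Fn1 encodes fibronectin, made by fibroblasts and many other adherent cells. Its intensity was 4743 in neurons from co-culture and 3804 in neurons alone. That was 1.25-fold higher in neurons from co-culture, a log2 ratio of 0.32 equal to 1.51 SD of a probe set. Past 1 SD lay 25.3% of all genes, and 8.65% of all genes had a ratio as high as that of Fn1 or higher. Its range over the 5 scalings was 0.22 to 0.40. The 3 laminin chains and Fn1 were all higher, with a median log2 ratio of 0.30 that stayed between 0.20 and 0.38 over the scalings.

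**Figure D2:**
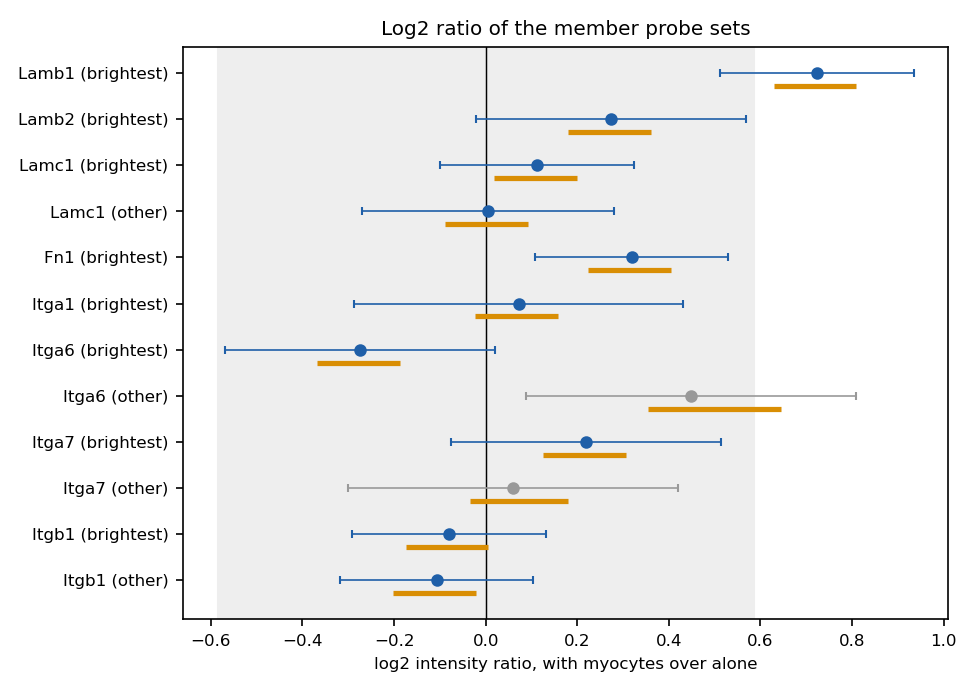
Log2 ratio (neurons from co-culture over neurons alone) of the 12 member probe sets not below the floor in both arrays; bars show the SD of a single probe set at that brightness, orange lines the range over 5 other scalings, blue points lie above the signal filter and grey points below it, and the shaded band is 1.5-fold either way. Lamb1 (0.72) is the point outside the band, while Itga1 (0.072), the brightest Itgb1 probe set (-0.080), the other Lamc1 probe set (0.0052) and the other Itga7 probe set (0.060) have an orange line that crosses 0.

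The integrin subunits showed no shared direction. Itgb1, the common beta subunit, had 3896 in neurons from co-culture and 4120 in neurons alone on its brighter probe set. Its other probe set had 2039 in neurons from co-culture and 2197 in neurons alone. The 2 probe sets thus gave close log2 ratios of -0.080 and -0.11, each within 1 SD (0.21), and the first was 0.0058 after median scaling. Fn1 and Itgb1, ligand and receptor subunit, differed in log2 ratio by 0.40, or 1.33 SD.

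Itga7 encodes the alpha 7 subunit, the main laminin receptor of skeletal and cardiac muscle, also found in neurons. Its brightest probe set had 414 in neurons from co-culture and 355 in neurons alone, a log2 ratio of 0.22 within 1 SD (0.29). A dimmer one, below the filter, had 137 in neurons from co-culture and 131 in neurons alone, a ratio of 0.060 that was -0.034 under scaling to the spiked controls. The third had 6.83 in neurons from co-culture and 9.32 in neurons alone, both under the floor. So this gene rests on a single probe set, whose ID marks it as shared by several transcripts.

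Itga6 encodes the alpha 6 subunit, a laminin receptor of neurons, Schwann cells and epithelia. Its brightest probe set had 380.0 in neurons from co-culture and 459 in neurons alone, a log2 ratio of -0.27 that was 0.93 of the SD. The other had 89.1 in neurons from co-culture and 65.3 in neurons alone, a ratio of 0.45 at a signal below the filter. These probe sets pointed in opposite directions, and their mean was 0.087. Itga1, the alpha 1 subunit, had 313 in neurons from co-culture and 298 in neurons alone. Its log2 ratio was 0.072, or -0.022 under scaling to the spiked controls. The 4 measured integrin subunits had a median of -0.0043 (-0.098 to 0.082 over the scalings), with 2 higher and 2 lower as deposited.

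**Figure D3:**
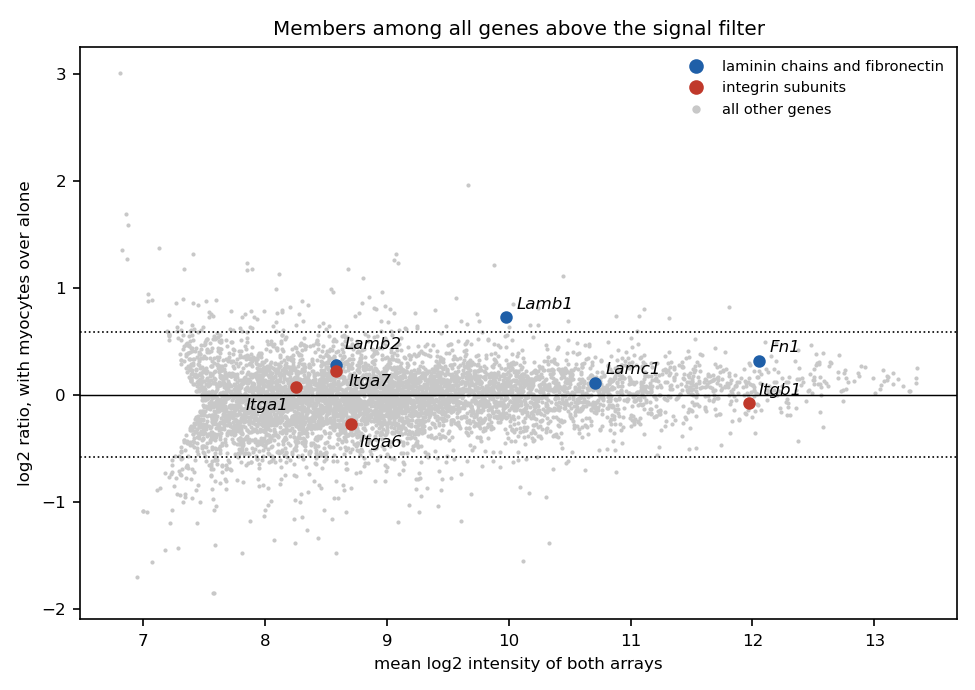
Log2 ratio (neurons from co-culture over neurons alone) against the mean log2 intensity of both arrays for the 6368 genes above the signal filter, with laminin chains and fibronectin in blue, integrin subunits in red and 1.5-fold dotted. Lamb1 (0.72) lies beyond the upper dotted line, and the other 7 genes lie inside both lines.

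Other chains and receptors went both ways. Of 8 other laminin chains listed, 5 had probe sets and 4 were above the filter, 2 higher and 2 lower. Lama4, the alpha 4 chain of vessel and nerve laminins, had 1276 in neurons from co-culture and 1189 in neurons alone, a log2 ratio of 0.10. Lama5 had 206 in neurons from co-culture and 162 in neurons alone, a ratio of 0.35, while its other probe set, at or near the floor, was at -0.11. Lama5 passed the filter only through neurons from co-culture, where it is high. Lama2, the alpha 2 chain of muscle and Schwann cell basement membrane, had 210.2 in neurons from co-culture and 326 in neurons alone, a log2 ratio of -0.63 (-0.55 after median scaling, and under 1.5-fold after quantile and lowess scaling too). Lama3, the alpha 3 chain of epithelial laminins, had 94.7 in neurons from co-culture and 255 in neurons alone, a ratio of -1.43. As deposited, Lama2 and Lama3 were thus lower by 1.5-fold or more, against 3.30% of all genes at that fold in the lower direction, both from single probe sets. Lama3 passed the filter through neurons alone, where it is high, so its difference helped to decide that it was counted.

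Of 21 other integrin subunits listed, 9 had probe sets and 3 were above the filter. Itga3, a laminin receptor subunit, had 507 in neurons from co-culture and 670 in neurons alone, a log2 ratio of -0.40. Itgb5, which binds vitronectin as a pair with alpha v, had 300.2 in neurons from co-culture and 425 in neurons alone, a ratio of -0.50, and -0.82 on its dimmer probe set. Itgb4, the beta partner of alpha 6 in epithelia, had 189 in neurons from co-culture and 177 in neurons alone, both close to the array medians. Itgb4 passed the filter only through neurons from co-culture, where it is higher. None of these 3 was at 1.5-fold. The list's median was -0.40, or 0.065 when the filter was lowered to the 25th percentile, which let in dim genes.

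Among other laminin receptors, 4 of 7 with probe sets passed the filter, with 3 higher and 1 lower and none at 1.5-fold. Over all genes, 47.3% were higher. The list's median was 0.087, but -0.13 when all probe sets of each gene were averaged. Sgcb, among the higher genes, had 176 in neurons from co-culture and 172 in neurons alone. It passed the filter only through neurons from co-culture. Rpsa, which encodes a ribosomal protein also described as a laminin receptor, had 7985 in neurons from co-culture and 6956 in neurons alone, a log2 ratio of 0.20, with 0.28 and 0.20 on its other probe sets. Dag1, dystroglycan, had 1487 in neurons from co-culture and 1351 in neurons alone, a log2 ratio of 0.14. Of its other probe sets, one had 613 in neurons from co-culture and 473 in neurons alone (0.37), and the dimmest had 62.5 in neurons from co-culture and 167 in neurons alone (-1.42). The basement membrane partners were balanced, with 6 higher and 4 lower of 10 above the filter, a median of 0.029 (-0.065 under scaling to the spiked controls) and none at 1.5-fold. Col4a1, a type IV collagen chain, had 4198 in neurons from co-culture and 4193 in neurons alone, and its other probe set was at 0.091. Sparc, a collagen-binding matrix protein, had 5102 in neurons from co-culture and 4403 in neurons alone, a ratio of 0.21, but -0.39 on its other probe set. The matrix partners of fibronectin had 9 higher and 2 lower of 11 above the filter, with a median of 0.15, where 47.3% of all genes were higher. Fbln5, among the lower genes of that list, passed the filter only through neurons alone, where it is high. The member of that list at 1.5-fold was Emilin1, an elastic fibre glycoprotein, with 597 in neurons from co-culture and 329.7 in neurons alone (0.86 on the log2 scale). That was 1 of 11, against 1.93% of all genes higher by that fold.

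The integrin adhesion list, which holds actin linkers such as vinculin, kinases, adaptors and membrane proteins of adhesion sites, was evenly split. Of 34 above the filter, 17 were higher and 17 lower, with a median of 0.011 that was -0.083 under scaling to the spiked controls. Vcl, vinculin, which ties talin to actin at adhesion sites, had 3265 in neurons from co-culture and 1983 in neurons alone, and its other probe set had 2879 in neurons from co-culture and 2116 in neurons alone. Both Vcl probe sets were higher, with log2 ratios of 0.72 and 0.44. Ptk2b, a kinase related to focal adhesion kinase, had 89.5 in neurons from co-culture and 191 in neurons alone, a ratio of -1.09 (-0.96 after quantile normalization). Of the 34 genes, Vcl was the higher and Ptk2b the lower call at 1.5-fold, but Ptk2b passed the filter through neurons alone, where it is high. Tns2, among the higher genes, passed only through neurons from co-culture. Over all genes, 5.23% were at that fold in either direction.

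**Figure D4:**
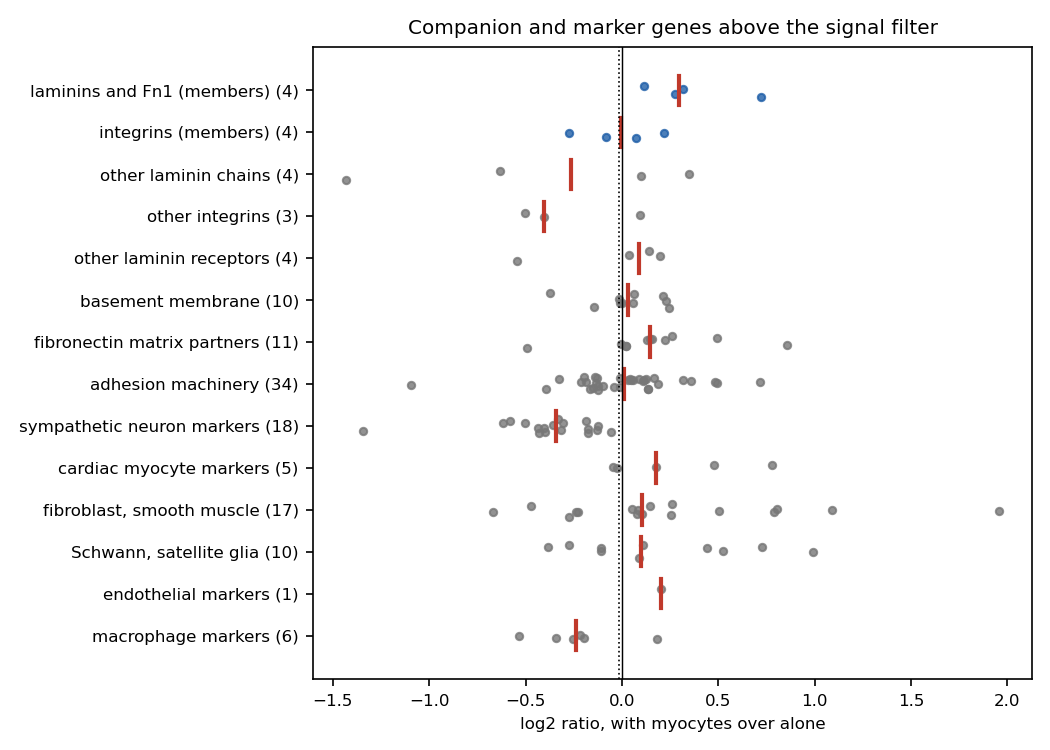
Log2 ratio (neurons from co-culture over neurons alone) of each gene above the signal filter in the laminin, integrin, matrix and adhesion lists and in the cell type marker lists, with the number of genes in brackets; red bars are list medians and the dotted line is the median of all genes. The 18 sympathetic neuron markers lie below 0 as deposited (Gata3 lies above 0 under 3 of 5 other scalings), the laminin and fibronectin genes all lie above 0, and the other lists spread over both sides except the single endothelial gene.

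Markers of several cell types were present in both arrays, and their ratios went both ways. Sympathetic neuron markers were mostly strong, as the label requires. Gata3 was near the array medians, with 189.5 in neurons from co-culture and 197.1 in neurons alone. All 18 with probe sets passed the filter, and Th, which makes the dopamine and noradrenaline precursor DOPA, had 4575 in neurons from co-culture and 6175 in neurons alone. On their brightest probe sets all 18 were lower in neurons from co-culture (median -0.34), though Gata3 was above 0 after lowess (0.032), median and quantile scaling. Their summed intensity was 41239 in neurons from co-culture and 51245 in neurons alone. The other Ddc probe set, below the filter, was higher (0.29), and that of Slc18a2 was near equal (-0.016). The other probe sets of Hand2, Tubb3, Nefl and Stmn2 were lower, and that of Gap43 was under the floor in both arrays. Of the 18 markers, Slc6a2, the noradrenaline transporter gene, had 217 in neurons from co-culture and 552 in neurons alone. Snap25, a vesicle fusion gene, had 1159 in neurons from co-culture and 1778 in neurons alone. Fibroblast and smooth muscle markers went the other way in 12 of 17 genes (median 0.11, or -0.020 after a lowess correction). Their sum was 54745 in neurons from co-culture and 51877 in neurons alone. Over all genes above the filter, 47.3% were higher and 52.7% lower. The 4 fibroblast and smooth muscle markers higher by 1.5-fold or more, against 1.93% of all genes, were matrix genes. Mgp had 1603 in neurons from co-culture and 412 in neurons alone, and Dcn had 652 in neurons from co-culture and 306 in neurons alone. The others were Loxl1 (1.73-fold higher) and Lum (1.75-fold higher). The 5 lower genes of this list were named after their values were seen. They were the contractile genes Acta2 (-0.47 on the log2 scale), Myl9 (-0.24) and Tagln (-0.23), the transcription factor gene Tcf21 (-0.67), and Thy1 (-0.28, and -0.81 on its other probe set). Tcf21 passed the filter only through neurons alone, where it is high. Cnn1, another contractile gene of the list, was higher (0.26), so the contractile genes went both ways.

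Cardiac myocyte markers were dim, with 5 of 21 above the filter and 3 under the floor in both arrays. Nppa, the myocyte marker that the study itself used, had 201 in neurons from co-culture and 178 in neurons alone, near the array medians in both. Of the 5 above the filter, 3 were higher and 2 lower. The lower 2 were Pln (-0.024 on the log2 scale, and -0.27 on its dimmer probe set) and Des (-0.048). Nppb, a natriuretic peptide gene, had 309 in neurons from co-culture and 180 in neurons alone (1.72-fold higher). Nppb and Nppa passed the filter only through neurons from co-culture, where they are higher. Nppb was the 1 of 5 at 1.5-fold, against 1.93% of all genes higher by that fold. Tnnt2, cardiac troponin T, had 408 in neurons from co-culture and 293 in neurons alone on its brighter probe set, and its dimmer one was at -0.43. Myl2, a ventricular light chain gene below the filter and named after its value was seen, had 134 in neurons from co-culture and 44.8 in neurons alone. Its other probe set was under the floor in both arrays. Myl2 was 1 of 16 markers below the filter, and the others there went both ways. Ttn had 68.5 in neurons from co-culture and 106 in neurons alone (-0.62 on the log2 scale). Ckmt2 had 19.4, under the floor, in neurons from co-culture and 56.0 in neurons alone (-0.50 with the floor). Myh6 had 134 in neurons from co-culture and 74.3 in neurons alone (0.85). Myh7 had 69.9 in neurons from co-culture and 18.3, under the floor, in neurons alone (0.82 with the floor). The other probe sets of Myh6 and Myh7 were under the floor in both arrays. The 21 markers summed to 2812 in neurons from co-culture and 2389 in neurons alone. Of Schwann and satellite glia markers, 6 of 10 above the filter were higher (median 0.097), where 47.3% of all genes were higher. Their sums were 9237 in neurons from co-culture and 9097 in neurons alone. S100b, a glial calcium-binding protein gene, had 524 in neurons from co-culture and 263 in neurons alone, and Egr2, a Schwann cell transcription factor gene, had 288 in neurons from co-culture and 174 in neurons alone. These were the 2 glial markers at 1.5-fold or more, with log2 ratios of 0.99 and 0.73, and none was lower by that fold. By that fold, 1.93% of all genes were higher and 3.30% lower. Egr2, Erbb3 and Gfap, all among the higher genes, passed the filter only through neurons from co-culture. Their differences thus helped to decide that they were counted. The 4 lower glial markers were Pmp22 (-0.11, and -0.50 on its other probe set), Ngfr (-0.11), Mbp (-0.28) and Glul (-0.39). Of 9 endothelial markers, Eng was the 1 above the filter, with 774 in neurons from co-culture and 672 in neurons alone. Macrophage markers were lower in 5 of 6 genes above the filter, where 52.7% of all genes were lower. Csf1r and Aif1, among the lower genes, passed the filter only through neurons alone, where they are high. The brightest macrophage markers were the lysozyme gene Lyz2 (-0.22) and Cd14 (0.18). No marker above the filter had a log2 ratio of 0, and markers under the floor in both arrays give no ratio. The part of these cell types in the Lamb1 and Fn1 differences was not tested.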

How the data were processed

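The authors deposited intensity values, 1 per probe set and array, for 15923 probe sets, 57 of them controls left out here. The design text names dChip 1.3 for quantification, whereas MAS5 appears in the submitters' processing notes. The sources used here do not give which one made the deposited intensity, nor its background step and scaling target. No detection call was used. The number of arrays, 1 per culture, limits the precision.

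The deposited intensity was used without further scaling, floored at the pooled 20th percentile (39.6), and log2 ratios were taken with Python 3.11.15 (pandas 2.3.3, statsmodels 0.14.6). Of 15866 probe sets, 12783 had 1 symbol, 312 several and 2771 none in the platform annotation. A gene took its brightest probe set. Other probe sets are given for all members, and for other genes where they bear on the value. The scripts were tested on simulated data. No test, and so no p-value, was computed.

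Named were all members with every probe set, the genes above the filter among other laminin chains and integrins, and Nppa. From each other list came up to 4 genes with the widest difference at 1.5-fold or more, or else the 2 brightest, with the 3 brightest also allowed for markers. Gata3, Myl2, Ttn, Ckmt2, Acta2, Myl9, Tagln, Tcf21, Thy1, Cnn1, Mbp and Glul were named after their values were seen. So were Myh6, Myh7, Csf1r, Aif1, Erbb3, Gfap, Sgcb, Fbln5 and Tns2. The same holds for Ddc, Slc18a2, Hand2, Tubb3, Nefl and Stmn2. Members, lists and alternatives were chosen with earlier results of these data known.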

Additional observations from a re-analysis of the deposited data

How the results depend on the processing

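Each of 12 alternatives (5 scalings, 3 treatments of low values, 2 filters, 2 ways to choose a gene's probe set) kept Lamb1, Lamb2, Lamc1, Fn1 and Itga7 higher in neurons from co-culture on their gene values wherever a value above the filter remained. Itga7 had none without probe sets for several transcripts. Lamb1 stayed the single member at 1.5-fold. The gene value of Itga6 was 0.087 with the mean over its probe sets. The lower members numbered 1 instead of 2 after median scaling and with that mean. Over all genes, the 1.5-fold higher calls were 190 after median scaling and 81 after spike scaling, against 123 as reported, and the lower ones 351 after spike scaling, against 210. Under a 25th percentile filter, and equally under none, the 1.5-fold calls were 259 higher and 580 lower, and the 2-fold calls 51 higher and 119 lower, against 20 and 40. The 2-fold lower calls were 22 with a pseudocount, and 5179 genes were lower with no filter, against 3356. The cause was not tested, except that a lower filter tests more genes. No paired analysis was possible because each culture has 1 array. The dimmest Itga7 probe set was under the floor in both arrays and gives no ratio, and the dimmer Itga6 probe set was below the 40th percentile floor in both.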
